A study of Homo sapiens with 18 samples.

Results

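The genes described here are 8 AP-1 and small MAF transcription factor genes: FOSL1, FOSL2, FOSB, JUN, BATF3, JDP2, MAFF and MAFG. They were picked by symbol from the genes that the authors' deposited tables list as changed, so the change of each gene against DMSO chose it and is given below as a description, with no test. The tables list 3647 genes in all, and the combination table, which holds all 8, lists 3508. The libraries were made from Cal51 cells, an established human line from a breast carcinoma, and 4 groups of 3 are used here: cells given the solvent DMSO, the lipid-lowering fibrate fenofibrate, the cholesterol uptake inhibitor ezetimibe, or both drugs (the combination), each for 8 h. All groups are the same line with no genetic change named, and the labels give no dose and do not say whether replicates were separate cultures. The series also holds 6 libraries of a PKM2 knockout and its control, which are not analysed here. Values are normalised read counts, that is reads multiplied by a factor for each library, and means are given ± SD over 3 libraries.

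AP-1 is a family of dimers of basic leucine zipper (bZIP) proteins that bind DNA as pairs. FOS proteins need a JUN partner, while JUN proteins can also pair with each other, and the dimers bind the TRE, TGACTCA, or the related CRE, TGACGTCA. BATF3 and JDP2 also pair with JUN proteins, and JDP2 is known as a repressor at AP-1 sites. The small MAF proteins MAFF, MAFG and MAFK lack an activation domain. They pair with CNC proteins such as NRF2 at antioxidant response elements, with BACH proteins as repressors, or with each other. Many AP-1 genes are immediate early genes, which mitogen-activated protein kinases (MAPK) switch on within minutes of a stimulus or stress.

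RefSeq promoter windows (GRCh38.p14, 250 bases before to 50 after a gene's start) were found for 6 of the 8 genes. These genes had 9 windows in all, and FOSL1 and BATF3 had no entry. The stretches below are shown because each holds a CRE, a relative of it, or another stress-response motif close to the start. Capitals mark the motif, and positions are counted from the RefSeq start, with -1 the base before it. For FOSL2, JUN, JDP2 and MAFF that start lies inside the gene span the tables give. Of the 150 bases before it, 35 in FOSL2 and all in JUN and MAFF are annotated as exon in GENCODE 29.
FOSL2, chr2:28392781-28392810, plus strand: gagtctggggtTGACGTgagtgaatccaca
FOSB, chr19:45467846-45467994, plus strand: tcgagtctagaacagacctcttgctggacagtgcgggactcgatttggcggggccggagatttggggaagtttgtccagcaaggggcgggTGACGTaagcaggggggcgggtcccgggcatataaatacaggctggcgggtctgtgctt
JUN, chr1:58784096-58784125, minus strand: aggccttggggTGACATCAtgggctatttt
JDP2, start 2, chr14:75427872-75428021, plus strand: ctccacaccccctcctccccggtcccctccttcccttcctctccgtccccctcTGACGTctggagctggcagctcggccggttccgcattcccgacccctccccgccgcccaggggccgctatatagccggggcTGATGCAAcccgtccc
MAFF, chr22:38201929-38201958, plus strand: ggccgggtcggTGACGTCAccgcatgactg

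The full CRE, TGACGTCA, lay in the MAFF window at -54 to -47 and in 1.85% of all 35116 windows searched. Its core TGACGT, which is part of the full CRE, occurred at -66 to -61 in FOSL2, -60 to -55 in FOSB, -97 to -92 in JDP2 (start 2) and 4 to 9 in MAFG. Of all windows 7.98% hold it. The percentages here are shares of windows, while a gene can have more than 1. The CRE-like letters TGACATCA of JUN, at -67 to -60, were in 2.61% of windows. JDP2 also held TGATGCAA at -16 to -9, a match to the C/EBP-ATF response element TGATGNAA that 3.62% of windows hold. The TRE, in 4.95% of windows, was matched at 5 to 11 in FOSL2 alone among the 6 genes. An antioxidant element core, TGACNNNGC, was matched at -122 to -114 in MAFF and in 13.3% of windows. The CArG box, in 1.29% of windows, had no match in these 6 genes. Both strands were searched, and the motifs were chosen after the sequences had been seen. A match is a run of letters, not evidence of binding.

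All 8 genes are listed in the combination table, 7 as higher and JDP2 as lower than in DMSO. That table lists 17.6% of the genes its authors tested, 10.3% as higher and 7.27% as lower. No treated library overlapped a DMSO library for any of the 8 genes, as for 99% of the genes in that table. The authors' log2 fold changes ran from -1.17 for JDP2 to 3.68 for MAFF. A gene had to pass 1 in size to be listed, and the members nearest to that limit were JDP2 and MAFG (1.29). Values just outside the limit are not in the tables. Ranked by rise among all listed genes, MAFF stood at 328, FOSL1 at 455, FOSB at 469, BATF3 at 534, JUN at 1016, FOSL2 at 1124 and MAFG at 1562.

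**Figure D1:**
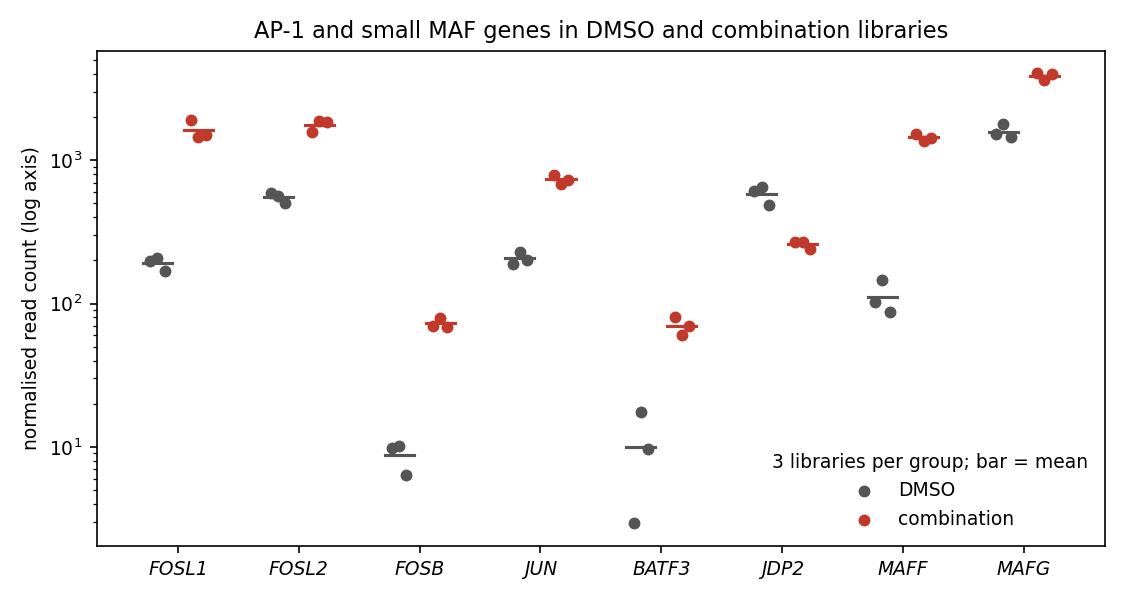
Normalised read count (log axis) of each of the 8 genes in the 3 DMSO and 3 combination libraries, 1 point per library. For 7 genes every combination library lies above every DMSO library, and for JDP2 every one lies below.

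Among the FOS genes, FOSL1 (ENSG00000175592, chromosome 11, 65892049 to 65900573, minus strand, hg38) encodes FRA-1, the FOS protein best known from invasive breast cancer cells. It measured 1909, 1453 and 1513 with the combination and 198, 207 and 169.7 in DMSO. The treated libraries were all far above the controls, and treated replicate 1 was the highest. The means were 1625 ± 248 and 192 ± 19.3, an 8.49-fold difference, and the limma log2 change was 3.07 ± 0.14 (SE).

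FOSL2 (ENSG00000075426, chromosome 2, 28392448 to 28417312, plus strand) encodes FRA-2, the other FOS-related antigen. Its values were 1589, 1887 and 1852 with the combination and 593, 562 and 505 in DMSO. Here treated replicate 1 was the lowest of the treated libraries, the reverse of FOSL1. The mean rose from 553 ± 44.6 in DMSO to 1776 ± 163, or 3.21-fold, a limma log2 change of 1.68 ± 0.11 (SE).

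FOSB (ENSG00000125740, chromosome 19, 45467995 to 45475179, plus strand), a classical immediate early gene, was scarce. It gave 70.1, 79.7 and 68.9 with the combination and 9.77, 10.1 and 6.40 in DMSO, resting on 222 and 27 reads in all. The groups stayed well apart despite the few reads, at 72.9 ± 5.89 and 8.76 ± 2.04, an 8.33-fold difference. The limma log2 change was 2.94 ± 0.29 (SE). FOSB lies within the span of ERCC1 on the other strand, with 0 exon bases shared. FOS itself is not listed in any table.

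JUN (ENSG00000177606, chromosome 1, 58780788 to 58784327, minus strand) encodes the main partner of the FOS proteins and was the single JUN family gene listed; JUNB and JUND are not. It measured 796, 689 and 734 with the combination against 188, 229.5 and 203 in DMSO. Its spread was narrow in both groups. The mean went from 207 ± 21.2 to 739.9 ± 53.4, or 3.58-fold, with a limma log2 change of 1.84 ± 0.13 (SE).

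BATF3 (ENSG00000123685, chromosome 1, 212686418 to 212699985, minus strand) is best known for its role in dendritic cells. It gave 80.01, 60.2 and 69.9 with the combination and 2.93, 17.4 and 9.61 in DMSO. The DMSO values rest on 3, 19 and 9 reads and had a coefficient of variation of 72.7%, a wide spread for the size of the rise. The means were 70.0 ± 9.89 and 9.99 ± 7.26, a 7.01-fold difference, and the limma log2 change was 2.95 ± 0.50 (SE). Without DMSO replicate 1 it was 2.34, and without DMSO replicate 2 it was 3.45.

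JDP2 (ENSG00000140044, chromosome 14, 75427716 to 75474111, plus strand) was the only gene of the 8 that was lower. Its values were 269, 271 and 239 with the combination and 613, 655 and 486 in DMSO. The lowest DMSO library was still 1.79 times the highest treated one. The mean went from 585 ± 88.4 to 259 ± 17.4, 2.25-fold lower, and the limma log2 change was -1.16 ± 0.14 (SE). An antisense gene shares 26 of its 6235 exon bases.

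Of the small MAF genes, MAFF (ENSG00000185022, chromosome 22, 38200767 to 38216511, plus strand), the most inducible of them by stress and cytokines, had the widest difference of all 8 genes. It measured 1526, 1374 and 1440.2 with the combination against 103, 146 and 87.5 in DMSO. Treated libraries were close together, and DMSO replicate 2 stood highest among the controls. The means were 1447 ± 76.0 and 112 ± 30.3, a 12.9-fold difference, with a limma log2 change of 3.71 ± 0.18 (SE). Its span overlaps that of PLA2G6 on the other strand, a gene also listed as higher (297 against 104), with 0 exon bases shared.

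MAFG (ENSG00000197063, chromosome 17, 81918270 to 81927714, minus strand) encodes the small MAF best known as the NRF2 partner. It gave 4058, 3625 and 4004 with the combination and 1524, 1797 and 1445 in DMSO. This was the smallest rise of the 7, from 1589 ± 184 to 3895 ± 236, or 2.45-fold, a limma log2 change of 1.30 ± 0.11 (SE). MAFG shares 105 of its 5220 exon bases with SIRT7 on the same strand and 224 with an antisense gene. Reads of the stretch shared with SIRT7 cannot be told apart by strand. The sources used here do not say whether counting used strand, so those of the antisense stretch may not have been told apart either. MAFK, the third small MAF, is not listed in any table.

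Within a group the same library was often the lowest or highest for several genes. DMSO replicate 3 held the lowest DMSO value for 6 of the 8 genes (FOSL1, FOSL2, FOSB, JDP2, MAFF and MAFG), and DMSO replicate 2 the highest for 7. Of the treated libraries, replicate 2 was the lowest for 5 genes. The same counts were not made over all listed genes, so this order is not read as particular to the 8. No value crossed between the groups for any of the 8 genes, as for 99% of the genes in the combination table.

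Levels of different genes were compared as the normalised count per kb of the gene length in the table. In DMSO, MAFG was by far the most abundant, at 304 ± 35.3 per kb. FOSL1 (101 ± 10.2), JDP2 (93.8 ± 14.2) and FOSL2 (77.3 ± 6.24) followed, and neighbours in this order overlapped. JUN stood at 58.4 ± 6.00 and MAFF at 19.9 ± 5.41. BATF3 (3.68 ± 2.68) and FOSB (1.58 ± 0.368) came last and overlapped. With the combination FOSL1 led, at 861 ± 131 per kb, overlapping MAFG at 746 ± 45.2. MAFF (258 ± 13.5), FOSL2 (248 ± 22.7) and JUN (209 ± 15.1) formed a group in which neighbours overlapped. JDP2 had dropped to 41.6 ± 2.80 per kb, above BATF3 at 25.8 ± 3.65 and FOSB at 13.1 ± 1.06.

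Among the listed FOS genes, and among the listed small MAF genes, the shares differed between the groups. Summed per kb, FOSL1, FOSL2 and FOSB rose from 180.4 to 1122 (6.22-fold). FOSL1 was 55.4%, 57.7% and 55.6% of that sum in the DMSO libraries and 81.2%, 73.5% and 74.7% in the treated ones, while FOSB was about 1% in both (0.866% and 1.18%). FOSL2 fell from 42.9% to 22.4% of the sum although its own level rose. MAFF and MAFG together rose from 324 to 1004 per kb (3.10-fold). MAFF was 5.89%, 7.02% and 5.33% of that sum in DMSO and 25.9%, 26.1% and 25.1% with the combination. Neither share overlapped between the groups. These shares cover listed genes alone, so FOS and MAFK are not in them.

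**Figure D2:**
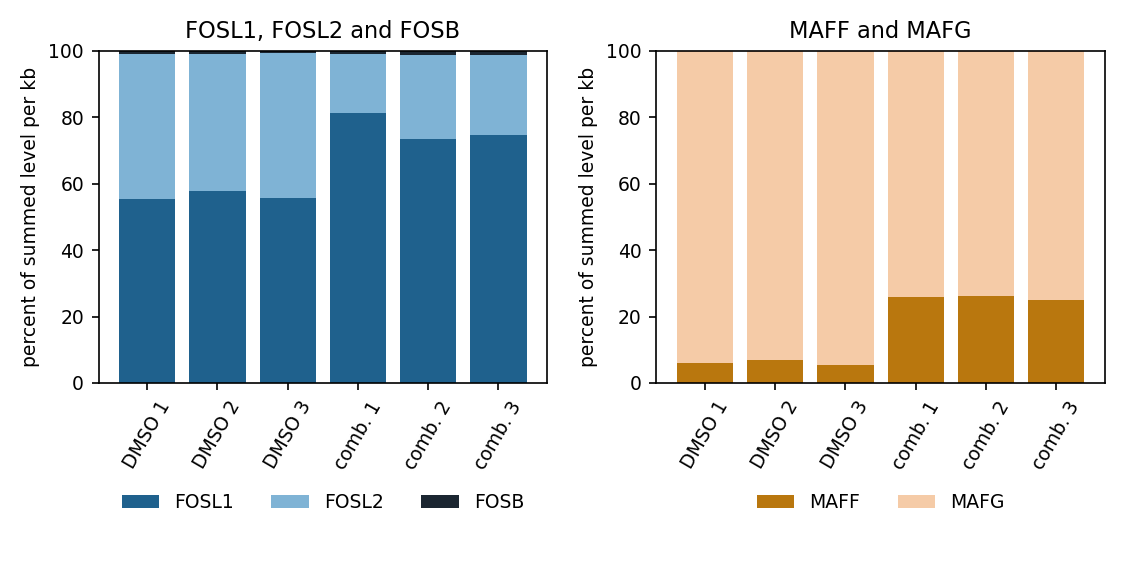
Percent of the summed level per kb held by each gene in every library, for FOSL1, FOSL2 and FOSB (left) and for MAFF and MAFG (right). FOSL1 takes 55.4% to 57.7% in DMSO and 73.5% to 81.2% with the combination, and MAFF goes from 7.02% or less to 25.1% or more.

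None of the 8 genes is listed with a single drug. The fenofibrate table lists 0.835% of the genes tested and the one for ezetimibe lists 3.47%. A gene can be absent because its change was under the limit, because its adjusted p was 0.05 or above, or because it was not tested. No library value is given for these genes with fenofibrate or ezetimibe, so their change with each drug cannot be given, and the combination could not be tested against either drug for them. For the 6 genes with DMSO means of 112 to 1589, genes of that level range were called with both drugs: 53 are listed with fenofibrate, the largest adjusted p among them being 0.00645, and 144 with ezetimibe (0.0372). At the level of FOSB and BATF3 the listed changes were larger. Within 0.8 to 1.25 times the DMSO mean of FOSB, fenofibrate lists 2 genes, with no log2 change under 3.42 in size, and ezetimibe 36, with none under 1.38. Around BATF3 the counts were 2 (none under 3.42) and 38 (none under 1.22).

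ATF3, a stress-induced bZIP factor that pairs with JUN and JDP2, is the only gene of the FOS, JUN, BATF, ATF and MAF lists that every table holds. It measured 133, 148 and 119.5 with fenofibrate, 162, 166 and 159 with ezetimibe, and 3148, 2684 and 2649.7 with the combination. The DMSO libraries gave 61.5, 51.4 and 60.8 on the scale of the combination table. Each drug alone thus gave a small rise, 2.37-fold and 2.79-fold, and both together 48.8-fold. After rescaling by the DMSO libraries that the tables have in common, the combination exceeded ezetimibe 17.5-fold (limma log2 4.11 ± 0.13 SE, adjusted p = 6.06e-11) and fenofibrate 20.6-fold (4.36 ± 0.13, adjusted p = 2.06e-09). Ezetimibe against fenofibrate gave 0.24 ± 0.15 (limma adjusted p = 0.173), which missed the threshold. Genes listed in both tables of a pair passed the same limma test in 63.2% of 359 cases for the combination against ezetimibe, 78.5% of 65 against fenofibrate and 58.3% of 60 for ezetimibe against fenofibrate; none of the 8 genes is among them.

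Of all bZIP genes, as the tables' own family column names them, fenofibrate lists 2 (ATF3 and DDIT3), ezetimibe 4 (these, NFIL3 and XBP1) and the combination 17. Of the 17, 15 were higher, and of the 282 listed transcription factors 177 were (62.8%). The 17 include the 8 genes described here (7 higher, 1 lower), which were picked because they are listed. These shares are therefore not set against each other. The lower ones were JDP2 and DBP, a clock output factor. DDIT3, which encodes the stress factor CHOP, reached 1786 ± 379 with the combination, 14.4-fold over DMSO, and exceeded ezetimibe by 2.37 ± 0.16 (SE) on the log2 scale (limma adjusted p = 5.95e-08). NFIL3, which encodes a bZIP repressor, exceeded it by 1.91 ± 0.17 (limma adjusted p = 4.70e-07). XBP1, a factor of the unfolded protein response, did so by 0.90 ± 0.09 (limma adjusted p = 1.13e-06). The combination table also lists CREB5, at 28.5, 45.4 and 44.0, with 0 reads in all 3 DMSO libraries.

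**Figure D3:**
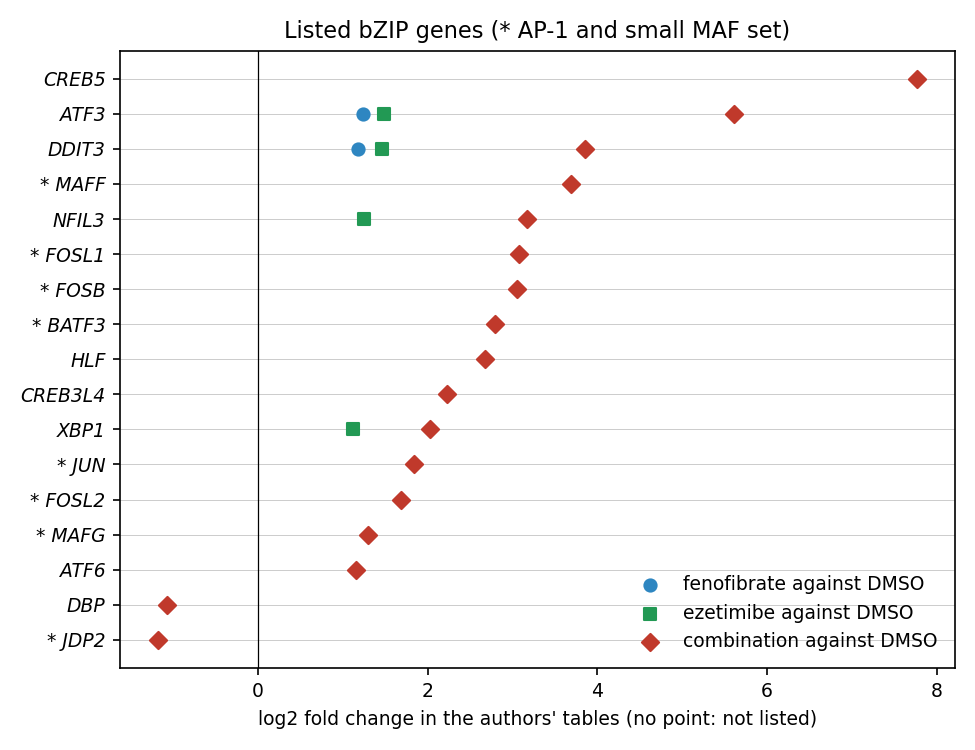
The authors' log2 fold change against DMSO of the 17 bZIP genes listed with the combination, 1 point per table that lists the gene, with the 8 AP-1 and small MAF genes starred. Only ATF3 and DDIT3 have points for all 3 treatments, and JDP2 and DBP are the only points below 0; the CREB5 value is the authors' estimate for a gene with 0 DMSO reads.

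Among BATF, JDP2 and ATF partner genes 3 of 7 are in the combination table: ATF3 and BATF3 as higher and JDP2 as lower. BATF3 and JDP2 were picked because they are listed. Of the CNC and BACH partners of small MAF, 0 of 6 are listed, and so are 0 of 4 large MAF genes. The combination lists 17.6% of all genes tested, so 0 in lists of this size is not read as a result. The tables do not tell an unchanged gene from an unexpressed one.

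Upstream, 7 of 19 genes of the JNK and p38 route to AP-1 are listed with the combination, 6 higher and 1 lower, with a median of the authors' log2 change of 3.02. The median was 1.17 over all listed genes and 1.82 over those listed as higher, which also stand beside the list medians below. Of all genes tested the combination lists 17.6%, 10.3% as higher and 7.27% as lower, which stand beside the list counts here and below. The listed genes include GADD45G, which sets the median, and MAP3K5, with 27 and 17 DMSO reads in all. GADD45A, which activates MAP3K4 upstream of p38 and JNK, rose 19.4-fold (10433 ± 211 against 538 ± 32.6). Its relative GADD45B rose 6.22-fold, MAPK13, a p38 kinase, 9.10-fold (91.8 ± 18.1 against 10.1 ± 2.61), and MAP2K6, a p38 activator, 2.49-fold. The lower gene, named after its values were seen, was MAPK9, which encodes JNK2, at 752 ± 48.6 against 1637 ± 106. The other 12 members of that list are in none of the tables.

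MAPK feedback genes, mostly phosphatases that switch MAPK off, had 6 of 15 listed as higher and 0 as lower (median 2.22). DUSP1 rose 5.98-fold (1728 ± 82.7 against 289 ± 27.7), DUSP5, which acts on ERK, 5.58-fold, DUSP8 5.54-fold and DUSP2 3.91-fold. The other immediate early genes gave 8 of 16 higher and 0 lower (median 2.17). These 8 include ARC, with 7 DMSO reads in all. MYC rose 6.17-fold (7419 ± 85.9 against 1202 ± 62.4), NR4A3, an orphan nuclear receptor, 5.05-fold, PHLDA1 3.98-fold and NR4A1 3.59-fold. No gene of the upstream, feedback or immediate early lists is listed with a single drug. Of all genes tested, fenofibrate lists 0.835% and ezetimibe 3.47%.

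Downstream, 12 of 25 genes with known AP-1 sites are listed with the combination, 11 higher and 1 lower (median 2.66). The higher ones include AREG, MMP1 and TNC, with 0, 3 and 9 DMSO reads in all. EREG, an EGF receptor ligand, rose 26.1-fold (331 ± 107 against 12.6 ± 3.36), the chemokine CXCL8 12.2-fold and the cytokine IL6 5.68-fold. CCND1, which encodes cyclin D1, was the lower gene, named after its values were seen, at 5252 ± 137 against 12303 ± 351. Members of this list are also listed with ezetimibe (5 of 25, all higher) and fenofibrate (2 of 25, both higher). Of all genes tested, these drugs list 3.47% and 0.835%, so the absence of the 8 factors there is not read as a contrast. CXCL8 stood higher with ezetimibe than with fenofibrate by 0.81 ± 0.09 (SE) on the log2 scale (limma adjusted p = 1.16e-05) and higher with the combination than with ezetimibe by 1.73 ± 0.10 (limma adjusted p = 1.86e-08).

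Antioxidant genes with known small MAF and NRF2 sites had 12 of 20 listed as higher with the combination and 0 as lower (median 2.17). The 12 include AKR1B10, with 0 DMSO reads. Ezetimibe lists 6 of 20 as higher and fenofibrate 2 of 20, where 3.47% and 0.835% of all genes tested are listed either way. HMOX1, which breaks down haem, rose 16.7-fold with the combination (472 ± 76.7 against 28.3 ± 2.32), OSGIN1 6.18-fold, the transporter ABCC3 5.99-fold and SQSTM1, an autophagy receptor, 4.91-fold. HMOX1 was higher with the combination than with ezetimibe by 1.74 ± 0.16 (SE) on the log2 scale (limma adjusted p = 1.05e-06). In this comparison 4 of the 6 members listed in both tables passed the threshold. AKR1C1 (0.20 ± 0.08, limma adjusted p = 0.0567) and SLC7A11 (0.41 ± 0.21, limma adjusted p = 0.117) missed it. Among all 359 genes listed with both ezetimibe and the combination, 63.2% passed the same limma test. The 4 of 6 are therefore not read as particular to this list.

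**Figure D4:**
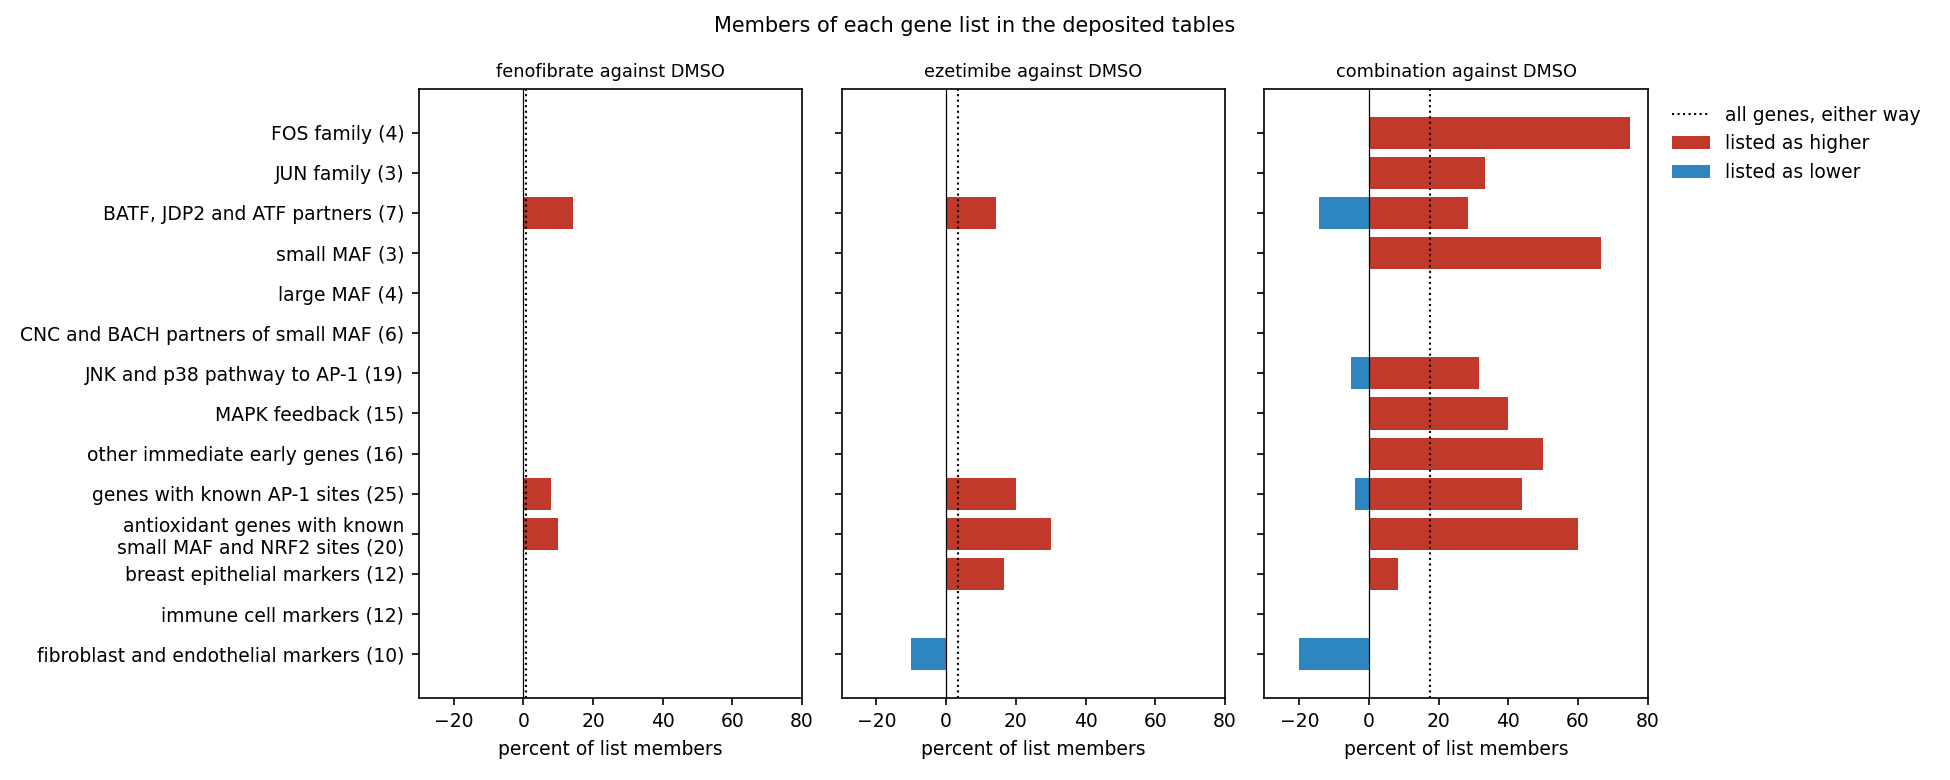
Percent of the members of 14 gene lists (sizes in brackets) listed as higher (red) or lower (blue, plotted to the left of 0) in each table; the dotted line is the percent of all tested genes listed either way, 0.835%, 3.47% and 17.6%. In the FOS, JUN and small MAF rows every listed gene was picked because it is listed, so their bars with the combination follow from that choice. These rows are empty with either drug alone, where few of all tested genes are listed.

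Markers of breast epithelial and of other cell types were scanned in the same way. Of 12 immune cell markers, 0 are listed in any table. Of 12 breast epithelial markers, GATA3 is listed as higher with the combination (104 against 25.1), and of 10 fibroblast and endothelial markers COL1A1 (262 against 1021) and PDGFRB (381 against 1092) as lower. Ezetimibe lists GATA3 (53.2 against 25.1) and CLDN4 (68.8 against 24.1) as higher and CDH5 (10.1 against 26.9) as lower, and fenofibrate lists none of them. Of all genes tested, 17.6% are listed with the combination, 3.47% with ezetimibe and 0.835% with fenofibrate. The marker counts are too small or too near these shares to read anything from. The part of these genes in the values of the 8 factors was not tested, and since the tables hold listed genes alone, the defining markers of the line could not be checked.

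Neighbouring genes within 200000 bases were counted for each of the 8 in the GENCODE annotation. BATF3 and ATF3 lie 65641 bases apart on opposite strands, and both are listed as higher with the combination. JDP2 lies near FOS and BATF, and 0 of its 5 protein-coding neighbours are listed. For MAFF 4 of 8 neighbours are listed, all higher, and for MAFG 6 of 25, 1 higher and 5 lower. FOSB had 3 of 14 listed, BATF3 2 of 6 and FOSL1 1 of 22, all higher, while FOSL2 (0 of 2) and JUN (0 of 1) had none. Of all genes tested, 17.6% are listed, so these counts are too small or too near that share to read anything from.

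The listed genes most like FOSL1 over the 6 libraries were sought by the root mean square difference of log2 change among 2099 genes. UPP1, a uridine phosphorylase gene, was nearest, at 0.05, followed by TSPYL2 (0.07) and the chemokine gene CCL20 (0.10). For MAFF they were MST1 (0.13), AKNA (0.16) and PPP1R15A (0.19), which encodes the stress-induced phosphatase subunit GADD34. The likeness covers 2 conditions and is a description.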

How the data were processed

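Per the submitters' processing notes, the tools were HISAT2 2.0.5, featureCounts 1.5.0-p3 and fastp, and the build was hg38. The sources used here do not name the program behind the authors' comparisons. Per the file headers, a deposited table pairs 6 libraries of signal with a log2 fold change and p-values from the authors. Tested on the values, the deposited signal equals read counts times 1 factor per library (0.892 to 1.12), set by table. Divided by that factor, 100% of values gave whole reads within 0.001. Every listed gene has a log2 fold change beyond 1 in size and an adjusted p below 0.05 by the authors, and other genes are not analysed here, so total depth is unknown; 2550718 to 3265200 reads per library fall in the genes of the combination table. Numbers of genes tested (12215, 13596 and 19944) were inferred from ranks of p-values, whole for 58.8%, 89.1% and 89.7% of them, so fenofibrate is the least certain.

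The 8 genes and the 14 lists were chosen with earlier results of these data known. Limma 3.58.1 (trend, R 4.3.3) was fitted to log2 of the value plus 1 over all genes of a table, or over the genes shared by both tables of a treatment pair with all their libraries and DMSO, with Benjamini-Hochberg adjustment at 0.05, 2-sided. The treatment pairs share the DMSO libraries that set their scale. An exact permutation test of 3 against 3 libraries gives no p below 0.1, so none was used. P-values measure spread between these libraries, which may be technical. Up to 4 genes per list were named, by size of change, if the mean over 6 libraries reached 50, with the 3 genes most like FOSL1 and MAFF, the AP-1 and small MAF genes that rose most; other names were chosen after their values were seen. A gene that this rule names is not reported here. The fits were tested on simulated data. Alternatives were edgeR 4.0.16 on recovered reads, other pseudocounts, a mean filter, a replicate block, leaving out each library, and other scalings.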

Additional observations from a re-analysis of the deposited data

How the results depend on the processing

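At an absolute log2 fold change above 2, 4 of the 8 genes (FOSL1, FOSB, BATF3 and MAFF) and 32 of 57 listed list members in the combination table were left. Of 94 refits of single genes of the 8, 93 moved by less than the replicate spread, and 0 changed direction. FOSB with a pseudocount of 5 gave 2.51. The refits with a replicate block or a mean filter are among the 94 and could not move, as neither step changes a log2 fold change here. Those without 1 library could not pass the replicate spread either, since dropping 1 of 3 values moves a mean by less than its SD. Refits with a dropped library or another pseudocount could not change direction, as the groups did not overlap. The 93 and the 0 are therefore not read as a test of robustness. The count of the 8 genes past 1 in size was 8 with edgeR, with either pseudocount and without any 1 library, and 6 with a mean of at least 50, which removes FOSB and BATF3. Scaling each library to its reads in listed genes, chosen after seeing the data, shifted all genes by 0.17 (median) and left 7, with JDP2 at -0.99. Correlations of same-numbered deviations were 0.09, -0.33 and 0.16, and those of differently numbered ones ran from -0.33 to 0.34. Whether the replicate numbers pair the samples cannot be told from these values. A replicate block cannot alter the count of 8, since each group holds every replicate number once. The block gave 225, 50 and 32 calls for the combination against ezetimibe, against fenofibrate and ezetimibe against fenofibrate, where 227, 51 and 35 were called without it. DDIT3 for ezetimibe against fenofibrate missed the threshold (0.30, limma adjusted p = 0.146) and passed it without fenofibrate replicate 2 (0.50, adjusted p = 0.0100). ATF3 in that pair missed it in every alternative run (adjusted p 0.0761 to 0.433). EdgeR on recovered reads called 236, 51 and 39 genes in these 3 treatment pairs.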
